A study of Mus musculus with 12 samples.

Results

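The genes described here are 35 genes of cholesterol and fatty acid synthesis, taken from the deposited tables by their gene names. All 35 were found in the table of Myc-CaP cells, which lists 40077 genes, and in the table of Myc-CaP tumors, which lists 34508, and 34365 gene identifiers are in both tables. The study asked how loss of the transcription kinases CDK12 and CDK13 acts on tumor cells, and it used YJ1206, an oral PROTAC that directs both kinases to degradation. Myc-CaP cells derive from a prostate tumor that arose in a transgenic mouse with human MYC expressed in that gland. Cells in culture received the solvent DMSO or YJ1206 at 1 μM for 24 hours (n = 3 libraries each). Tumors grown under the skin of FVB mice came from animals dosed orally with vehicle or with 100 mg/kg of YJ1206, 3 times per week (n = 3 libraries each). All 4 groups carry the same MYC-driven line, no gene was deleted in any of them, and the age of the mice is not given in the sources used here. The study's methods describe replicates in general as biological and independent. The labels of these libraries do not tie them to separate cultures or animals, so the p-values measure the spread between libraries, whatever its source.

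Cholesterol is built from acetyl-CoA through mevalonate, isoprenoid units and squalene, and fatty acids from acetyl-CoA through malonyl-CoA. The SREBP transcription factors switch on both routes when sterols in the endoplasmic reticulum are low: SCAP carries them to the Golgi for cleavage, and the INSIG proteins hold them back. LXR receptors respond to oxysterols and raise the exporters ABCA1 and ABCG1, and prostate carcinoma is known for active synthesis of both kinds of lipid.

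Estimated counts per library summed to 18198086 to 18519926 in DMSO cells, 13936902 to 14869592 in YJ1206 cells, 15391544 to 26928365 in vehicle tumors and 18307820 to 22418665 in YJ1206 tumors. Libraries were prepared after removal of ribosomal RNA, although the labels of the cells name polyA RNA. The DMSO libraries and the YJ1206 libraries of the cells belong to separate series of library numbers, so a library batch and the treatment cannot be told apart there. The cells held no leukocyte signal to speak of (summed TPM of 5 markers 0 to 0.432). The prostate luminal genes Pbsn and Tmprss2 and the epithelial genes Epcam and Cldn7 were at or under 3 counts in every cell library, so these defining markers of prostate epithelium were at or near 0 in the cells. In the tumors, library 2 of the vehicle group stood apart from library 1, and library 3 lay between them for most of the genes described here. These values are given with the tumor results.

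A promoter shows where SREBP and its partners can bind. RefSeq windows (build GRCm38.p6, 250 bases before a start to 50 after it) were at hand for 27 of the 35 genes. The sterol regulatory element TCACNCCAC was found in 1 of the 27, Hmgcs1, against 1.44% of 27025 genes of the same table. The NF-Y box CCAAT was found in 21 (77.8%, against 41.1% of all genes), the Sp1 box GGGCGG in 23 (85.2%, against 38.2%) and the E-box CANNTG in 19 (70.4%, against 75%). Both strands were searched, a gene counted when any of its windows held the letters, and motifs could overlap, as 1 E-box and 1 NF-Y box of Hmgcs1 do. These are counts of letters, not of bound sites. The 5 sequences below are shown for genes on which the comparisons turn: Hmgcs1, which moved in opposite directions in cells and tumors, its regulator Srebf2, Acly of the fatty acid branch, Mvk, which was lower in the cells, and the exporter Abca1. Each is written 5′ to 3′ on the strand of the gene, within the 250 bases before its RefSeq start and outside the GENCODE gene model, and capitals mark the sterol regulatory element and the NF-Y box (CCAAT, or ATTGG for the other strand). Hmgcs1 (ENSMUSG00000093930.2) lies at chr13:119690101-119690350 (plus strand), Srebf2 (ENSMUSG00000022463.8) at chr15:82147019-82147180 (plus), Acly (ENSMUSG00000020917.17) at chr11:100528001-100528250 (minus), Mvk (ENSMUSG00000041939.14) at chr5:114444019-114444268 (plus) and Abca1 (ENSMUSG00000015243.4) at chr4:53159896-53160145 (minus).
Hmgcs1: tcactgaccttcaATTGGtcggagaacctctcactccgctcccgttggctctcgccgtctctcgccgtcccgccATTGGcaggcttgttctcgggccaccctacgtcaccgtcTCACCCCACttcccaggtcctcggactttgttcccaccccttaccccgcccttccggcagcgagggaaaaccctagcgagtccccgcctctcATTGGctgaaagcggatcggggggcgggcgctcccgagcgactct
Srebf2: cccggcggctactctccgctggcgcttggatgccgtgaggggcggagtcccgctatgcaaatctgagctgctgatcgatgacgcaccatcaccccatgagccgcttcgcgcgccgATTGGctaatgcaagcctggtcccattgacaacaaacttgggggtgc
Acly: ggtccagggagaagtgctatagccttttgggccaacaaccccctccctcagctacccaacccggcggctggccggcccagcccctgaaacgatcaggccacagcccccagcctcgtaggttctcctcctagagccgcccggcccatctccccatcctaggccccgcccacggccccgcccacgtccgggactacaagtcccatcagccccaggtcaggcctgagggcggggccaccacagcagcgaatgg
Mvk: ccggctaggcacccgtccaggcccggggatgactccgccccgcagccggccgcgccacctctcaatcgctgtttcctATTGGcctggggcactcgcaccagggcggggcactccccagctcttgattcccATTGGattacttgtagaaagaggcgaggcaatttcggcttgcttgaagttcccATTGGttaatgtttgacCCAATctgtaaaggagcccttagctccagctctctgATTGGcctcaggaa
Abca1: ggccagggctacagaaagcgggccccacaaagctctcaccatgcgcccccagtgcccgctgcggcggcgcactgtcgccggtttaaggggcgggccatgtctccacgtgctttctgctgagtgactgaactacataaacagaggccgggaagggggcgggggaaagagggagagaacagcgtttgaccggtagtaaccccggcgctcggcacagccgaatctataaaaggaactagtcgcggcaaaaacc
The element of Hmgcs1 lies 129 to 137 bases before the start, with NF-Y boxes on either side of it. Mvk holds 5 NF-Y boxes in this stretch, the nearest 10 to 14 bases before the start. The stretches of Acly and Abca1 hold neither the element nor the NF-Y box, and Sp1 boxes were found in all 5 stretches. Acly still counts among the 21 genes with an NF-Y box, since its full window holds 1 in the bases after the start.

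Levels between genes were compared as TPM (transcript levels on a scale that sums to 1000000 in each library), which is scaled for transcript length. Scd2, a desaturase that makes monounsaturated fatty acids, was the highest of the 35 in every group, with means of 440 ± 2.26 TPM in DMSO cells, 275 ± 3.93 in YJ1206 cells, 293 ± 102 in vehicle tumors and 402 ± 58.4 in YJ1206 tumors (SD, n = 3). Its range overlapped that of the next gene only in vehicle tumors. Fasn, the fatty acid synthase, followed it in DMSO cells at 160 ± 3.52 TPM and in vehicle tumors at 183 ± 33.0, while Fdps, which makes farnesyl diphosphate, held that place in YJ1206 cells at 154 ± 8.21. The median over the 35 genes, taken in each library and averaged over the 3 libraries, was 35.2 ± 2.58 TPM in DMSO cells, 33.7 ± 1.13 in YJ1206 cells, 36.4 ± 5.44 in vehicle tumors and 27.6 ± 1.31 in YJ1206 tumors (SD). At the low end, Acss2, which makes acetyl-CoA from acetate, had means of 1.5 to 3.9 TPM over the 4 groups. The cholesterol exporter Abcg1 was at or under 3 counts in all but 1 of the cell libraries, with means of 5.0 and 5.3 TPM in vehicle and YJ1206 tumors. In the order of DMSO cells, each gene from Fads1 (57.4 TPM) through Msmo1, Pmvk and Scap overlapped in range with the next, down to Sc5d (50.7 TPM).

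**Figure D1:**
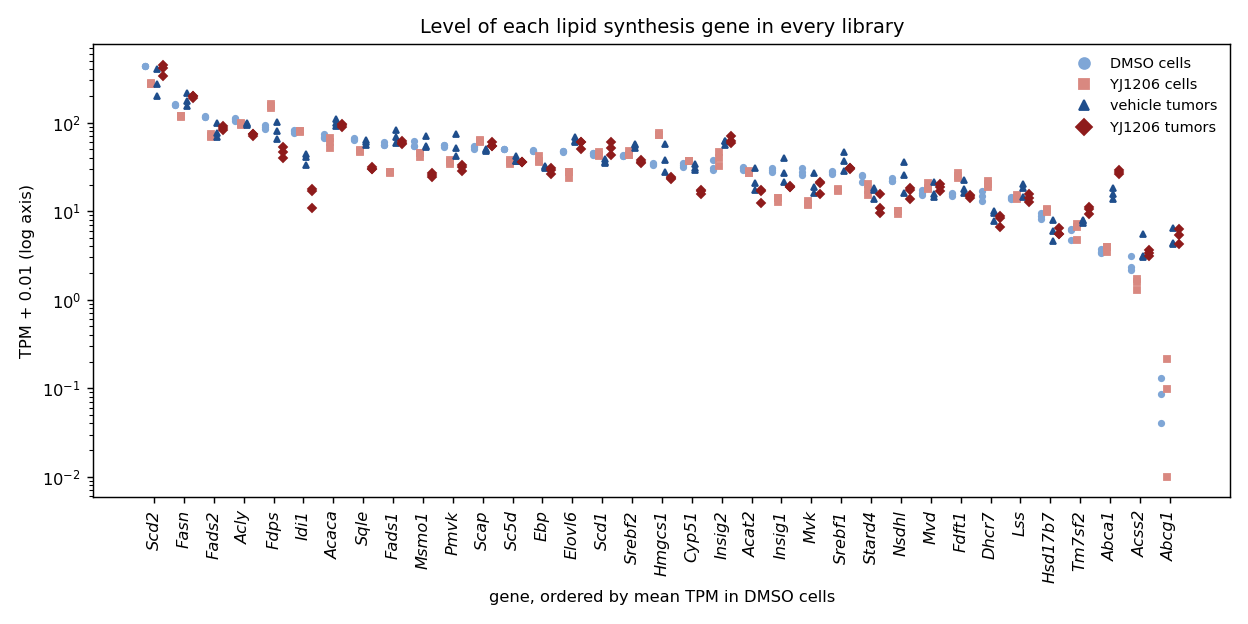
TPM of each gene in every library on a log axis (0.01 added), ordered by the mean in DMSO cells, with 1 marker shape for each of the 4 groups. Scd2 leads in every group, with 440 TPM in DMSO cells, and Abcg1 is near 0 in cells only.

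In YJ1206-treated cells these genes moved in both directions. Hmgcs1, Fdps, Fdft1, Dhcr7, Scap and Cyp51 were called higher under every scaling tried. Called lower under every scaling were Insig1, Srebf1, Mvk, Pmvk, Nsdhl, Sqle and Stard4. On the fatty acid side, Acss2, Fasn, Elovl6, Fads1, Fads2 and Scd2 were also called lower under every scaling. Of the 34 genes tested, 17 were higher, 14 were lower and 3 were not called (edgeR quasi-likelihood test, Benjamini-Hochberg adjusted p under 0.05 over 11826 genes), and 76.1% of all genes tested were called, 37.8% higher and 38.3% lower. Their median log2 fold change was 0.09, against -0.02 for all genes tested. Scaling by total counts moved the median of all genes to -0.20, and log2(TPM + 1) moved it to -0.24, so changes in the cells are relative to the TMM scale. Under total counts 30 of the 34 genes were called, 13 higher and 17 lower. Of these 30, 27 shared gene and direction with the 31. On the TPM scale 24 of the 34 genes were called, 6 higher and 18 lower. Of these 24, 19 shared gene and direction with the 31. The shares of all genes called higher or lower are given here for the TMM scale only. The tilt to lower calls under total counts and TPM was therefore not shown to be particular to the set. Values per library are given below as TMM-scaled counts scaled to the library size (CPM), in the order of the library numbers.

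Among the SREBP regulators, 3 of 5 were higher and 2 were lower. Scap, the escort of SREBP, was at 106, 108 and 113 CPM in DMSO cells and at 164, 156 and 169 in YJ1206 cells. The groups did not overlap, and the log2 fold change was 0.58 ± 0.04 (SE, adjusted p = 2.77e-13). Srebf2, which drives the cholesterol genes, rose with a log2 fold change of 0.29 ± 0.04 (SE, adjusted p = 8.58e-08), and Insig2 with 0.36 ± 0.06, but neither was called on the TPM scale (0.07 for Srebf2 and 0.26 for Insig2). Insig1, the sterol-sensitive retention factor and itself an SREBP target, went from 43.7, 45.9 and 41.6 CPM to 23.5, 26.3 and 26.6. All treated libraries lay lower, and its log2 fold change was -0.78 ± 0.07 (SE, adjusted p = 2.84e-11). Srebf1, which favors fatty acid genes, was lower at -0.38 ± 0.05.

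Of the 7 genes of the mevalonate and isoprenoid steps, 5 were higher and 2 were lower. Hmgcs1, the HMG-CoA synthase whose promoter holds the sterol element shown above, was at 65.4, 63.2 and 61.4 CPM in DMSO cells and at 157, 153 and 166 in YJ1206 cells. The treated libraries were 2.51-fold higher with no overlap, and the log2 fold change was 1.33 ± 0.04 (SE, adjusted p = 1.35e-20), the largest of the 34. Fdps was at 50, 55.5 and 50.2 CPM and then at 101, 106 and 114, also without overlap. Its log2 fold change was 1.04 ± 0.05 (SE, adjusted p = 1.25e-16). Mvd, the mevalonate diphosphate decarboxylase, rose by 0.53 ± 0.09 on the log2 scale and was not called on the TPM scale (0.21). Idi1, the isopentenyl diphosphate isomerase, rose by 0.27 ± 0.04, though it was just below 0 on the TPM scale and not called there or under total counts, and Acat2, an acetyl-CoA acetyltransferase, rose by 0.16 ± 0.06 but was below 0 under total counts and TPM, and 3 of the 6 fits with 1 library left out did not call it. Mvk, the mevalonate kinase, was lower. It stood at 21.4, 18.7 and 18.9 CPM in DMSO cells and at 9.95, 10.3 and 11.2 in YJ1206 cells, with a log2 fold change of -0.91 ± 0.10 (SE, adjusted p = 2.48e-09). Pmvk, the next kinase of the route, was lower at -0.28 ± 0.07.

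From squalene to cholesterol, 6 of 11 genes were higher, 2 were lower and 3 were not called. Fdft1, the squalene synthase, was at 26.3, 27 and 28.2 CPM in DMSO cells and at 51.7, 52.8 and 58.8 in YJ1206 cells. Its log2 fold change was 1.00 ± 0.06 (SE, adjusted p = 3.46e-14), without overlap. Dhcr7, which completes cholesterol from its last precursor, rose by 0.90 ± 0.08, the C14 sterol reductase Tm7sf2 by 0.65 ± 0.21, the demethylase Cyp51 by 0.45 ± 0.04, the dehydrogenase Hsd17b7 by 0.37 ± 0.08 and the lanosterol synthase Lss by 0.29 ± 0.06. Of these, Tm7sf2, Hsd17b7 and Lss were not called on the TPM scale, and Lss was not called under total counts either. Nsdhl, a sterol dehydrogenase that removes a C4 methyl group, was at 25.8, 26.1 and 27.9 CPM and then at 14.6, 14.5 and 13.5. It fell without overlap, with a log2 fold change of -0.90 ± 0.08 (SE, adjusted p = 9.13e-11). Sqle, the squalene epoxidase, was lower by less, at -0.12 ± 0.04. The C4 methyl oxidase Msmo1, the isomerase Ebp and the desaturase Sc5d did not pass the test, with log2 fold changes of -0.03 ± 0.06, -0.04 ± 0.06 and 0.03 ± 0.05. On the TPM scale Sc5d was at -0.48. Relative to the median gene of each library, its counts for each TPM were 1.17-fold higher in YJ1206 cells (0.23 on the log2 scale), without overlap. All 3 genes were called lower under total counts and on the TPM scale. The sterol carrier Stard4 was lower at -0.29 ± 0.06.

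On the fatty acid side, 2 of 9 genes were higher and 7 were lower. Elovl6, which lengthens palmitate, was at 155, 151 and 154 CPM in DMSO cells and at 103, 92.4 and 101 in YJ1206 cells. Fads1, the delta-5 desaturase of polyunsaturated fatty acids, was at 109.7, 118 and 109 CPM and then at 66.1, 66.2 and 68.2. Neither gene overlapped between groups, with log2 fold changes of -0.63 ± 0.04 (SE, adjusted p = 9.8e-14) for Elovl6 and -0.75 ± 0.04 (SE, adjusted p = 5.44e-15) for Fads1. The delta-6 desaturase Fads2 was lower at -0.44 ± 0.03, Scd2 at -0.37 ± 0.02 and Acss2 at -0.60 ± 0.21. Acaca, which makes malonyl-CoA, was lower at -0.17 ± 0.03 but not called on the TPM scale (-0.23), and Fasn was lower at -0.12 ± 0.02. Scd1, a desaturase like Scd2, was at 114, 114 and 115 CPM and then at 141, 144 and 139. It rose by 0.30 ± 0.04 without overlap, but was just below 0 on the TPM scale. Acly, the ATP citrate lyase that supplies acetyl-CoA to both routes, rose by 0.15 ± 0.03 and was below 0 under total counts and TPM. The exporter Abca1 rose by 0.41 ± 0.08, from 21.2, 23.3 and 20.7 CPM to 26.2, 30.1 and 30.2. On the TPM scale its groups overlapped, at 3.38 to 3.77 TPM and 3.48 to 3.98 TPM, and it was not called (0.08). Of the 34 genes, 31 had no overlap between the groups, 17 higher and 14 lower, against 77.5% of all genes tested, 38.4% higher and 39.2% lower.

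**Figure D2:**
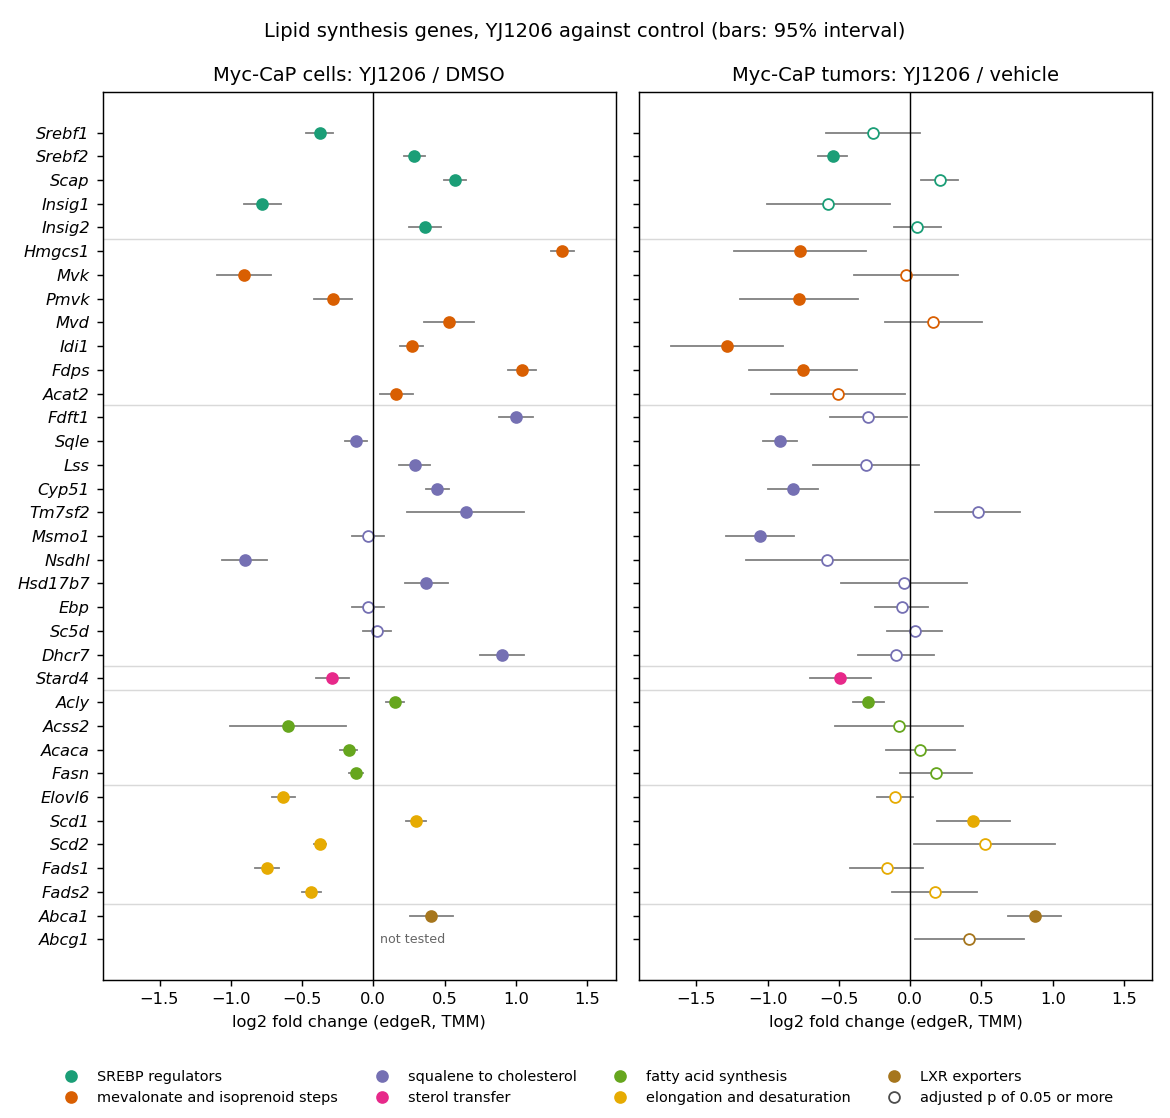
Log2 fold change of YJ1206 over control for each gene, in cells (left) and tumors (right), by role. Filled points passed the adjusted test. Bars are normal approximations to unadjusted 95% intervals, taken from the SE, and are narrower than those of the edgeR test. In tumors the bars of Acat2, Abcg1, Fdft1, Scd2 and Nsdhl leave out 0, though their unadjusted edgeR p was 0.069 to 0.082. In cells 31 of 34 points are filled and lie on both sides of 0 (Acat2, Acly, Idi1 and Scd1 cross 0 under another scale, and 10 of the 31 are not called on the TPM scale), whereas in tumors 10 of the 12 filled points lie below 0.

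In the YJ1206 tumors, 10 of the 35 genes were lower, 2 were higher and 23 did not pass the test. Over all 15558 genes tested in the tumors, 26.8% were called, 14.9% lower and 11.9% higher. The median log2 fold change of the 35 genes was -0.11, against 0.01 for all genes, and it ran from -0.25 without vehicle library 1 to -0.015 without vehicle library 2. The 10 lower genes were Srebf2, 4 genes of the mevalonate and isoprenoid steps, 3 from squalene to cholesterol, Stard4 and Acly, and the higher ones were Scd1 and Abca1. Of the 18 genes from the mevalonate steps to cholesterol, 11 were not called. In these bulk samples, fewer cells of a type and less RNA per cell cannot be told apart.

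Srebf2 was at 149.6, 148 and 142 CPM in vehicle tumors and at 97.9, 103 and 100 in YJ1206 tumors. The libraries of each group were close together and the groups did not overlap, with a log2 fold change of -0.54 ± 0.05 (SE, adjusted p = 0.0012). The other regulators were not called: Scap was at 0.21 ± 0.07, higher in all treated libraries, Insig1 at -0.57 ± 0.22, Srebf1 at -0.26 ± 0.17 and Insig2 at 0.05 ± 0.08.

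Idi1 had the largest change of the set in tumors. Its libraries were at 56.2, 76.5 and 67.7 CPM with vehicle and at 19.3, 32.1 and 30.7 with YJ1206. The groups did not overlap, and the log2 fold change was -1.28 ± 0.20 (SE, adjusted p = 0.00469). Fdps was at 40.2, 62.7 and 49.4 CPM with vehicle and at 24.4, 36.1 and 29.8 with YJ1206. Its vehicle libraries spread widely above the treated ones, with a log2 fold change of -0.75 ± 0.19 (SE, adjusted p = 0.0265). For Hmgcs1 the vehicle libraries were at 46.1, 95.8 and 65 CPM and the treated ones at 38.7, 42.3 and 40.1. The lowest vehicle library lay just above the highest treated one, and the call was close to the threshold, at -0.77 ± 0.24 (SE, adjusted p = 0.0481). Pmvk showed the same layout, with 25.3, 45.9 and 30.6 CPM and then 18.2, 21 and 20.1, and a log2 fold change of -0.78 ± 0.21 (SE, adjusted p = 0.0317). Mvk, Mvd and Acat2 were not called and stood at -0.03 ± 0.19, 0.16 ± 0.17 and -0.51 ± 0.24.

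Further down the route, Sqle was at 102, 91.9 and 98.3 CPM in vehicle tumors and at 52.5, 51.3 and 51 in YJ1206 tumors. These were among the tightest groups of the set, and the log2 fold change was -0.91 ± 0.06 (SE, adjusted p = 0.000629). Msmo1 was at 48.3, 60.5 and 50.8 CPM and then at 24.2, 29.1 and 23.5. Cyp51 was at 67.9, 82.9 and 71.5 CPM and then at 42.1, 40 and 43.7. Both were lower in every treated library, with log2 fold changes of -1.05 ± 0.12 (SE, adjusted p = 0.00189) for Msmo1 and -0.82 ± 0.09 (SE, adjusted p = 0.00168) for Cyp51. The remaining 8 genes of this segment were not called. Their log2 fold changes ran from -0.58 ± 0.29 for Nsdhl to 0.47 ± 0.15 for Tm7sf2, with Fdft1 at -0.29 ± 0.14, Lss at -0.31 ± 0.19, Dhcr7 at -0.10 ± 0.14, Ebp at -0.06 ± 0.10, Hsd17b7 at -0.04 ± 0.22 and Sc5d at 0.03 ± 0.10. Stard4, which moves sterol between membranes, was at 34.1, 41.3 and 40.9 CPM with vehicle and at 25.4, 30.5 and 26.8 with YJ1206. It was lower in all treated libraries, at -0.49 ± 0.11 (SE, adjusted p = 0.0163).

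Of the 9 fatty acid genes, Acly was lower, Scd1 was higher and 7 were not called. Acly was at 205, 221 and 213 CPM with vehicle and at 170.4, 180.3 and 169.8 with YJ1206, a small difference without overlap and a log2 fold change of -0.29 ± 0.06 (SE, adjusted p = 0.00864). Scd1 was at 86.4, 105 and 95.8 CPM and then at 107, 151 and 132. The lowest treated library lay just above the highest vehicle one, at 0.44 ± 0.13 (SE, adjusted p = 0.0436). Scd2 was at 660.0, 1382 and 917 CPM with vehicle and at 1176, 1617 and 1459.9 with YJ1206. The groups overlapped, since vehicle library 2 lay within the range of the treated ones, and the test did not pass (0.52 ± 0.25). Fasn, Acaca, Acss2, Elovl6, Fads1 and Fads2 had log2 fold changes between -0.16 and 0.18. Abca1 showed the larger of the increases, from 115, 90.3 and 101 CPM to 175, 197 and 188. All treated libraries were higher, with a log2 fold change of 0.87 ± 0.10 (SE, adjusted p = 0.00168). Abcg1 was at 11.1, 7.24 and 6.92 CPM and then at 10.3, 11.5 and 12.1, overlapping and not called (0.41 ± 0.20). Between the tumor groups, 16 of the 35 genes did not overlap, 12 of them lower and 4 higher with YJ1206, against 44.6% of all genes tested, 22.8% lower and 21.8% higher.

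**Figure D3:**
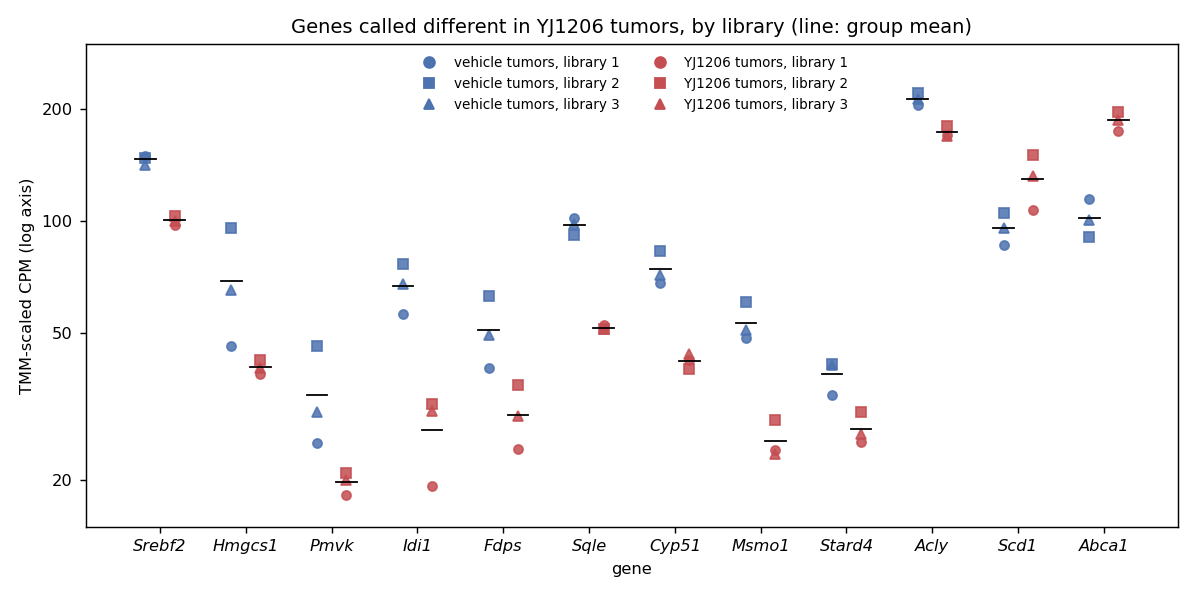
TMM-scaled CPM on a log axis in each tumor library for the 12 genes called different, with vehicle in blue, YJ1206 in red, 1 marker shape per library number and a line at the group mean. None of the 12 overlaps between groups, the Srebf2 and Sqle libraries lie close together, and the vehicle libraries of Hmgcs1 run from 46.1 to 95.8 CPM.

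The spread within the vehicle group was wide for these genes. Their median coefficient of variation was 19.7% there, against 10.8% for all genes tested, while in YJ1206 tumors it was 6.30% against 7.89%. Vehicle library 2 was above vehicle library 1 for 31 of the 35 genes, with a median log2 ratio of 0.50, against 0.01 over all genes. Among 15492 tested genes above 0 in every tumor library, it was above for 7888. For 18 of the 35 genes, and for 2970 of the 15492, vehicle libraries 1 and 2 differed by more than 0.5 on the log2 scale. Among the 18 were Nsdhl at 1.24, Scd2 at 1.07, Hmgcs1 at 1.06, Insig1 and Hsd17b7 at 0.95 and Pmvk at 0.86. Library 3 lay between libraries 1 and 2 for 31 of the 35 genes (88.6%, against 59.8% of all genes) and for 17 of those 18. In YJ1206 tumors only Idi1, Fdps and Acat2 of the 35 differed by that much between libraries 1 and 2, as did 1678 of the 15492 genes. Vehicle libraries 1 and 2 were close for Srebf2 (log2 ratio of library 2 over 1 of -0.01) and Sqle (-0.15), which were called lower, and also for Scap (0.09), Elovl6 (0.07) and Ebp (0.14), which were not called. Whether the libraries of a group came from separate animals is not given in the labels, and this bears on every tumor test here.

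The vehicle libraries also differed in the markers of other cell types. Summed TPM of 6 skeletal muscle genes was 728, 26.8 and 440 in vehicle libraries 1, 2 and 3, against 11.2 to 13.4 in YJ1206 tumors, and all 4 of its genes tested were lower. Summed TPM of 7 fibroblast genes was 735, 226 and 532 with vehicle and 165 to 364 with YJ1206, with 0 of 7 called by edgeR. Leukocyte markers were at 132, 346 and 220 with vehicle and at 396 to 426 with YJ1206, also with 0 of 5 called. Macrophage markers were at 347 to 541 and 392 to 513, with 3 of 10 called higher. Adipocyte markers were at 74.5 to 87.3 and 92.3 to 116, with 1 higher (Fabp4) and 1 lower (Plin4) of 4 tested. Most of that sum was Fabp4, with means of 68.9 TPM in vehicle tumors and 96.2 in YJ1206 tumors. Fabp4 was also at 86.1 TPM in DMSO cells, so the adipocyte sum is not particular to another cell type. Plin4 went from 3.78 to 0.54 TPM. The adipocyte genes Adipoq, Cidec, Lep and Cfd were at or under 3 counts in all YJ1206 tumors. The part of these cell types in the differences of the lipid genes was not tested.

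**Figure D4:**
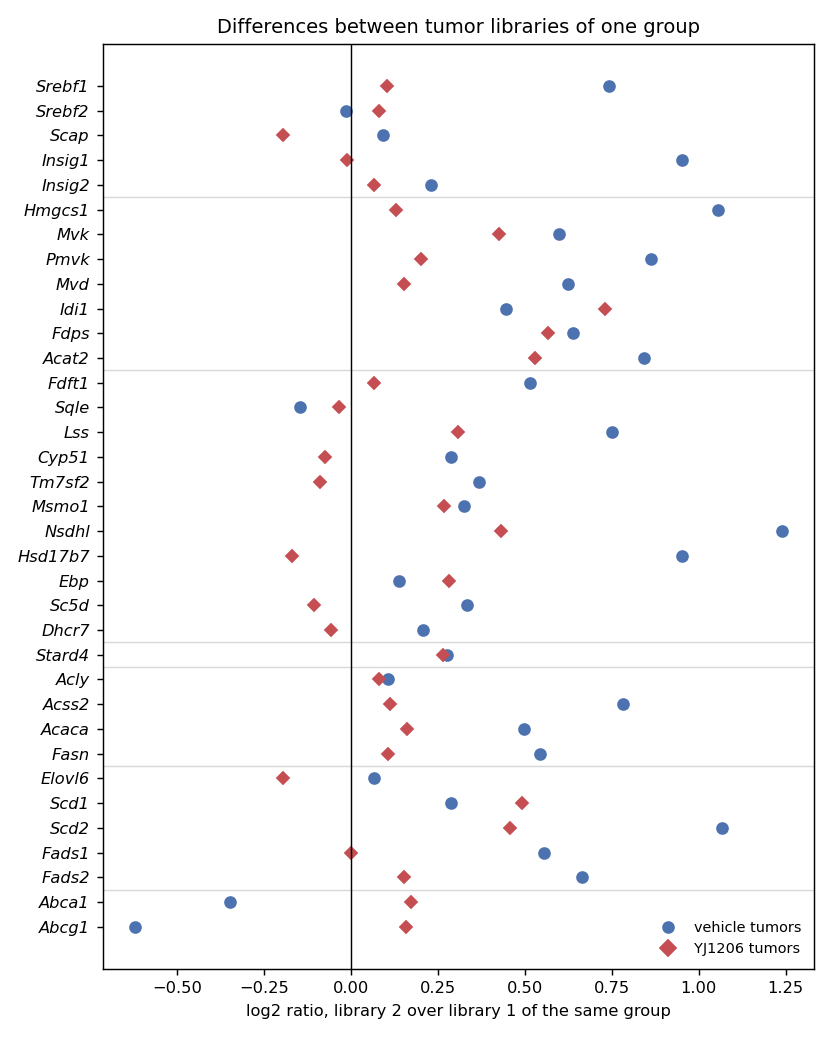
Log2 ratio of library 2 over library 1 of the same group for each gene, by role, in vehicle tumors (blue circles) and YJ1206 tumors (red diamonds). Vehicle ratios reach 1.24 for Nsdhl and lie above 0 for 31 of 35 genes, whereas YJ1206 ratios exceed 0.5 for 3 genes only.

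The tumor calls rested on the set of libraries to a large degree. Without vehicle library 2, 19 genes were called, 9 higher and 10 lower, and Scap, Mvd, Tm7sf2, Acaca, Fasn, Scd2 and Fads2 joined the 12. Without vehicle library 3 there were 7 and without YJ1206 library 3 there were 6. Over all genes, 4176 were called with all libraries, 5724 without vehicle library 2 and 1877 without YJ1206 library 3, so the number of calls did not shift for this set only. Srebf2, Idi1, Sqle, Cyp51, Msmo1 and Abca1 were called in each of the 6 fits that left out 1 library, while Hmgcs1, Pmvk and Scd1 were lost in 4 of the 6, Fdps and Stard4 in 3 and Acly in 1. On the TPM scale with all libraries, Hmgcs1 and Stard4 were not called and Tm7sf2 was. With libraries 1 and 2 of each group only, 0 of the 35 genes passed the edgeR test and 1 of all genes did. Before adjustment, 9 of the 35 were under 0.05 (8 lower and 1 higher), as were 3068 of all genes tested. All 12 genes kept their direction in that fit, and their lowest adjusted p was 0.134.

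The effect of YJ1206 was then compared between tumors and cells with 1 edgeR model over the 12 libraries, which shares 1 estimate of spread over both materials. The filter and TMM scaling of this model were also set over the 12 libraries. Its differences therefore need not equal those between the separate fits. Of the 35 genes, 14 had a lower effect in tumors than in cells, 6 had a higher one and 15 were not called, and 46.8% of 15328 genes were called, 26% lower and 20.9% higher. Without vehicle library 2 the split was 13 lower and 11 higher, and 7636 of all genes were called, against 7176 with all libraries. With tumor libraries 1 and 2 of each group only it was 13 lower and 3 higher, without Lss, Scd2, Fads2 and Abca1. The median difference of effects was -0.23 on the log2 scale, against -0.01 for all genes, and it ran from -0.36 without YJ1206 library 2 of the cells to -0.19 without vehicle library 2. Under total counts those medians were -0.02 and 0.20, 18 genes were called (8 higher and 10 lower), and Scap, Insig2, Acat2 and Lss were not among them. The lower ones with all libraries under TMM were 3 SREBP regulators, 4 genes of the mevalonate and isoprenoid steps, 6 from squalene to cholesterol, and Acly. The higher ones included 4 of the 5 elongation and desaturation genes.

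The widest gap was that of Hmgcs1. Its log2 fold change was 1.33 in cells and -0.77 in tumors by the separate fits, and the difference in the model over the 12 libraries was -2.13 ± 0.25 (SE, adjusted p = 1.41e-05). Fdps followed with 1.04 in cells and -0.75 in tumors, and a difference of -1.82 ± 0.21 (SE, adjusted p = 1.14e-05). For Idi1 the values were 0.27 and -1.28, and the difference was -1.58 ± 0.21 (SE, adjusted p = 3.37e-05). Fdft1 and Dhcr7 were raised in cells and not called in tumors, and their differences were -1.33 ± 0.16 and -1.04 ± 0.16. Those of Cyp51, Msmo1, Srebf2 and Sqle were -1.30 ± 0.10, -1.05 ± 0.14, -0.86 ± 0.06 and -0.82 ± 0.07. In the other direction, Scd2 had log2 fold changes of -0.37 in cells and 0.52 in tumors, with a difference of 0.87 ± 0.27 (SE, adjusted p = 0.0168). Mvk stood at 0.85 ± 0.22, Fads2 at 0.58 ± 0.16, Fads1 at 0.55 ± 0.14, Elovl6 at 0.50 ± 0.08 and Abca1 at 0.44 ± 0.13. Acat2, called at an adjusted p of 0.0387, was not called in 8 of the 12 fits with 1 library left out, and Lss and Abca1 were each not called in 2 of them.

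Among the 35 genes, 6 were called higher in cells and lower in tumors: Srebf2, Hmgcs1, Idi1, Fdps, Cyp51 and Acly, of which Acly was below 0 in cells under total counts and TPM and Idi1 just below 0 under TPM. In cells Srebf2 and Idi1 were not called on the TPM scale, and Idi1 was not called under total counts either. In tumors Hmgcs1 was called in 2 of the 6 fits with 1 library left out, and not on the TPM scale. Fdps was called in 3 of those 6 tumor fits and Acly in 5. Among 11235 genes tested in both, 7.26% were called higher in cells and lower in tumors. Pmvk, Sqle and Stard4 were lower in both materials, as were 8.99% of all genes, and Scd1 (just below 0 in cells under TPM) and Abca1 (not called in cells under TPM) were higher in both, as were 6.51%. No gene of the set was lower in cells and higher in tumors by the 2 tests, against 3.64% of all genes. Another 9 genes were higher in cells and 11 lower in cells without a call in tumors. The cells and the tumors also differ in dose, duration and surroundings, which cannot be told apart here.

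**Figure D5:**
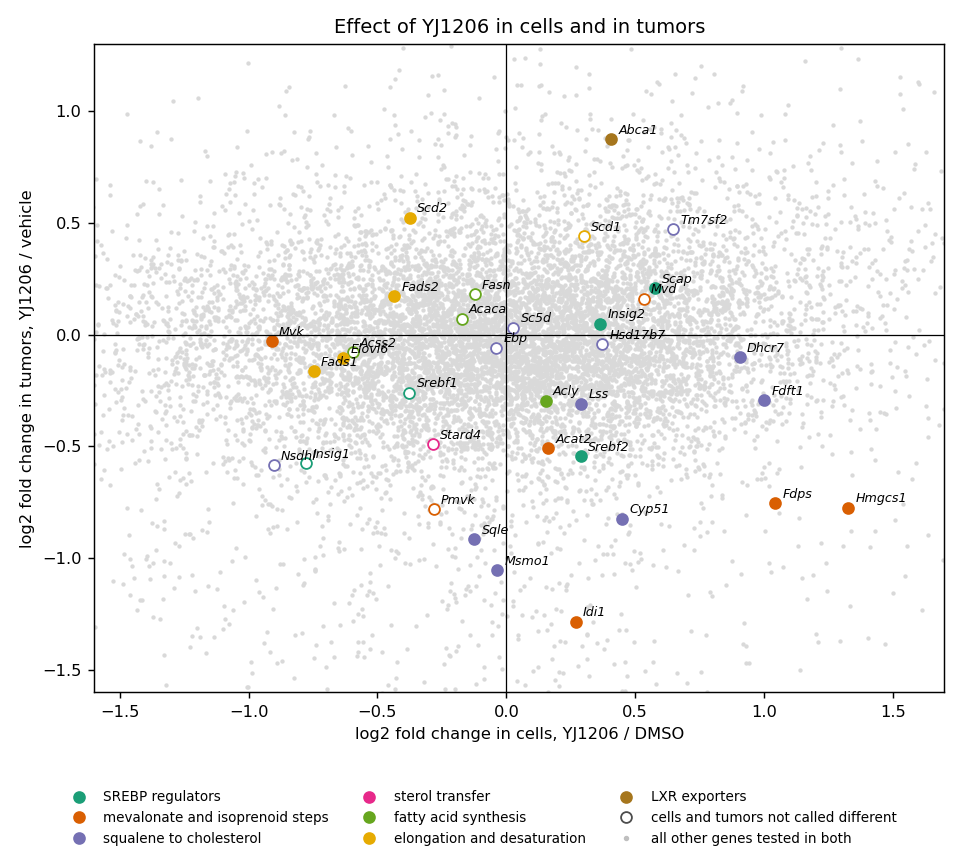
Log2 fold change in cells (horizontal) against that in tumors (vertical) for the 34 genes tested in both, colored by role and filled where cells and tumors were called different, over all other genes in grey (those outside the axes are not drawn). Hmgcs1, Fdps and Idi1 lie at the lower right and Scd2 at the upper left; the positions of Idi1, Scd1, Acat2 and Acly on the horizontal axis cross 0 under another scale.

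Other genes of lipid metabolism were read from 6 lists holding 104 genes. In tumors the oxysterol and LXR list had 4 of 11 tested genes higher and 0 lower, and fatty acid oxidation had 5 of 20 higher and 0 lower. SREBP control (processing and degradation factors) had 6 of 16 higher and 2 lower, uptake, trafficking and esterification of sterol 4 of 17 higher and 3 lower, the isoprenoid branches 0 of 13 higher and 3 lower, and supply and activation of fatty acids 4 of 22 higher and 2 lower. These counts compare with 11.9% higher and 14.9% lower over all genes. In cells the same lists, in that order, had 3 higher and 3 lower of 8, 11 and 6 of 19, 5 and 9 of 16, 5 and 7 of 16, 4 and 5 of 12, and 9 and 6 of 17, against 37.8% higher and 38.3% lower over all genes tested in cells. Mylip, an LXR target that marks lipoprotein receptors for degradation, rose in both materials, by 1.09 ± 0.12 in cells and 1.03 ± 0.08 in tumors on the log2 scale. Cyp27a1, which makes an oxysterol, rose by 1.09 ± 0.09 in tumors and stood at -0.24 ± 0.16 in cells. Lrp8, a receptor of the lipoprotein receptor family, was lower in both, at -1.35 ± 0.05 and -0.69 ± 0.10, and Npc2, which carries cholesterol out of lysosomes, was higher in both, at 1.16 ± 0.04 and 0.57 ± 0.11. Lbr, the nuclear envelope protein that is also a C14 sterol reductase like Tm7sf2, rose by 0.48 ± 0.03 in cells and was lower at -0.88 ± 0.07 in tumors.

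Among the processing factors, Mbtps2, the site-2 protease that releases SREBP, was lower in both materials at -0.67 ± 0.05 in cells and -0.45 ± 0.07 in tumors. The activating enzyme Acsl1 rose by 1.22 ± 0.03 in cells and its relative Acsl5 was lower at -0.84 ± 0.04 in cells and -0.73 ± 0.20 in tumors. Acacb, the mitochondrial acetyl-CoA carboxylase, was not tested in cells and rose by 2.05 ± 0.19 in tumors. Acadm, a dehydrogenase of fatty acid oxidation, was lower in cells at -1.26 ± 0.05 and higher in tumors at 0.33 ± 0.06. The endoplasmic reticulum protein Erlin1 was at 0.65 ± 0.03 and -0.22 ± 0.05 in cells and tumors, the chaperone Hsp90b1 at -0.12 ± 0.02 and 0.45 ± 0.05, the sterol transfer protein Gramd1b at -1.19 ± 0.10 and 0.59 ± 0.07, and the transporter Abca7 at -1.35 ± 0.08 and 0.38 ± 0.11, all 8 past the threshold. Fnta, a subunit of the protein prenyltransferases, rose by 0.72 ± 0.04 in cells, Pdss1, which builds the side chain of ubiquinone, was lower at -0.68 ± 0.08 in tumors, and Thrsp, a lipogenic factor, rose by 0.67 ± 0.13 in tumors. The kinase Pdk4 rose by 0.84 ± 0.04 in cells, and the dehydrogenase Hadh rose by 0.46 ± 0.05 and 0.47 ± 0.08 in the respective materials. The difference between materials was not tested for these named genes.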

How the data were processed

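RNA sequencing libraries of 12 samples in 4 groups of 3 were used, all assigned from their labels. Libraries were made from total RNA after enzymatic removal of ribosomal RNA and sequenced as read pairs. The labels of the cells name polyA RNA, and those of the tumors total RNA with the treatment under a batch heading. Per the labels, the submitters' processing notes name kallisto and the builds GRCm38 and mm10, with no version given in the sources used here. The authors deposited estimated counts per gene, which were not scaled between libraries, and TPM values, which the authors scaled for transcript length to a sum of 1000000 per library. Of the columns, 0 could not be assigned to a sample. The members and the other lists were chosen with earlier results of these data known, and no set test was run.

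Estimated counts were rounded to whole numbers and fitted in R 4.3.3 by the quasi-likelihood test of edgeR 4.0.16 (filterByExpr, TMM, Benjamini-Hochberg adjusted p under 0.05 over all genes tested), for cells and tumors apart, and for the difference of effects in 1 model over the 12 libraries. The study's methods name Benjamini-Hochberg adjustment for RNA sequencing and a permutation-based score for gene set enrichment, and the test applied per gene is not given in the sources used here. A gene at or under 3 counts was taken to be at the floor, which is 0.111 to 0.215 CPM over the libraries and covers counting error only. Named genes were every member and, in each of the 6 other lists, the 2 tested genes with the smallest adjusted p in cells and the 2 in tumors. Not every gene that this rule names is reported here. The scripts were first run on simulated counts in which 200 genes had been changed by known folds. No libraries of a group were identical or within sampling noise of each other. Alternatives were DESeq2 1.42.0, limma 3.58.1 on log2(TPM + 1) or log2(TPM + 0.1), limma voom with quality weights, other scalings and filters, a replicate block, and leaving out libraries. Gene models and promoter stretches came from GENCODE vM21 and RefSeq on GRCm38, and 34 of the 35 identifiers matched to the version. Promoter windows of 8 members were not used here.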

Additional observations from a re-analysis of the deposited data

Results flagged for a closer look

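The following genes are listed because the effect of YJ1206 in tumors differed from that in cells by the edgeR interaction test. Each value is the log2 fold change in tumors minus that in cells, both taken within that test, so it need not equal the difference between the separate fits. All came from 1 model that shares its spread over cultures and tumors, and dose, duration and surroundings differ between the materials. In the SREBP regulators the differences were -0.86 for Srebf2, -0.40 for Scap and -0.35 for Insig2. In the mevalonate and isoprenoid steps they were -2.13 for Hmgcs1, -1.82 for Fdps, -1.58 for Idi1, -0.70 for Acat2 and 0.85 for Mvk. From squalene to cholesterol they were -1.33 for Fdft1, -1.30 for Cyp51, -1.05 for Msmo1, -1.04 for Dhcr7, -0.82 for Sqle and -0.63 for Lss. On the fatty acid side they were -0.48 for Acly, 0.87 for Scd2, 0.58 for Fads2, 0.55 for Fads1 and 0.50 for Elovl6, and for the exporter Abca1 the difference was 0.44. Adjusted p-values ran from 1.90e-07 for Srebf2 to 0.0387 for Acat2. With 1 of the 12 libraries left out in turn, Acat2 was not called in 8 of the 12 fits and Lss and Abca1 in 2 each, and the other 17 genes were called in all 12. Groups of 3 libraries were too small for the search for single outlying values.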

How the results depend on the processing

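The 31 calls in cells remained with DESeq2, RLE size factors, other filters and the replicate block, and 29 to 31 genes were called when 1 library was left out. Over all genes, 8622 to 8824 were called in the cell fits that left out 1 library, against 8995 with all libraries. In tumors, the fits with 1 library left out called 6 to 19 genes, the fewest without YJ1206 library 3 and the most without vehicle library 2. Over all genes they called 1877 to 5724, against 4176 with all libraries, with the fewest and the most in the same fits. Libraries 1 and 2 of each group alone gave 0 calls by edgeR (9 at an unadjusted p under 0.05, against 3068 over all genes). The cause was not tested, though fewer libraries also give fewer degrees of freedom. All other settings gave 11 to 13 tumor calls. Differences between tumors and cells were called for 16 to 24 genes over all settings (3 to 11 higher and 10 to 17 lower). Over all genes, 6594 to 7636 of these differences were called when 1 library was left out, against 7176 with all libraries. With the replicate number as a block, 31, 13 and 22 genes were called in cells, in tumors and between them, against 31, 12 and 20. The deviations of libraries with equal numbers correlated at -0.03 to 0.01, so no shared deviation was seen. The labels do not say whether libraries of equal number were paired, and these correlations cannot settle it. Under the block Hsd17b7 in tumors turned to 0.00464.

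Some log2 values crossed 0. In cells under total counts these were -0.024 for Acat2, -0.16 for Sc5d and -0.033 for Acly. Under log2(TPM + 1) they were -0.00093 for Idi1, -0.14 for Acat2, -0.48 for Sc5d, -0.18 for Acly and -0.00292 for Scd1, and under log2(TPM + 0.1) -0.00093 for Idi1, -0.14 for Acat2, -0.49 for Sc5d, -0.18 for Acly and -0.0030 for Scd1. In tumors they were -0.0966 for Sc5d and -0.11 for Acaca under log2(TPM + 1), -0.099 for Sc5d and -0.11 for Acaca under log2(TPM + 0.1), and -0.011 for Insig2 and -0.017 for Sc5d with libraries 1 and 2 only. Of the differences between tumors and cells, Abcg1 turned to 0.34 with voom, and under total counts the values were 0.013 for Tm7sf2, 0.17 for Ebp, 0.19 for Sc5d and 0.081 for Abcg1. When 1 library was left out, the values that crossed 0, none of them called with all libraries, ranged in cells from -0.075 to 0.030 for Msmo1, -0.0013 to 0.043 for Sc5d and -0.084 to 0.0026 for Ebp, in tumors from -0.0051 to 0.12 for Insig2, -0.044 to 0.13 for Sc5d, -0.037 to 0.22 for Acaca, -0.15 to 0.18 for Mvk, -0.25 to 0.26 for Hsd17b7, -0.21 to 0.015 for Dhcr7, -0.23 to 0.23 for Acss2, -0.29 to 0.0018 for Fads1 and -0.13 to 0.012 for Ebp, and between them from -0.68 to 1.44 for Abcg1, -0.084 to 0.29 for Srebf1, -0.029 to 0.48 for Insig1, -0.10 to 0.068 for Sc5d, -0.12 to 0.024 for Ebp and -0.015 to 0.23 for Scd1. Depth limits Abcg1 in cells, which was at or under 3 counts in all but 1 library.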

Other observations

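Spearman's rho between the genomic span of a gene and its log2 fold change was -0.04 over 34 genes in cells and 0.18 over 35 genes in tumors, against -0.05 and -0.04 over all genes tested, and all points of a comparison share the same libraries. In cells the median log2 fold change was 0.29 for the 15 genes that span over 20 kb and -0.03 for the 19 shorter ones, against -0.03 and 0.0003 for all genes tested. In tumors it was -0.10 for the 16 longer genes and -0.16 for the 19 shorter ones, against -0.01 and 0.04.

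The set's share of all TPM differed between libraries. Summed TPM of the 35 genes was 1908 to 1945 in DMSO cells and 1599 to 1623 in YJ1206 cells. The median over all genes tested in cells was also below 0 on the TPM scale, as given above. The difference in the sum was therefore not shown to be particular to the set. In tumors it was 1533, 2100 and 1715 in vehicle libraries 1, 2 and 3 and 1538 to 1745 with YJ1206, so the tumor groups overlapped in this sum while the cell groups did not. Scd2 alone gave 440 of the 1908 to 1945 TPM in DMSO cells and 275 of the 1599 to 1623 TPM in YJ1206 cells.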
